A study of Mus musculus and Rattus norvegicus with 60 samples.

Results

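The hypertrophic zone (HZ) of the rat proximal tibial growth plate was compared between 4 weeks and 1 week of age, to ask which genes change in this layer as longitudinal growth slows. The comparison comprised the 10 rat libraries labelled as tibia HZ, 5 from 4-week-old and 5 from 1-week-old rats, of 30 rat libraries and 60 samples in the series. Both groups were normal Sprague Dawley rats with free access to food, male according to the study's methods, and neither age carried a treatment or an engineered allele. Each library was made from 1 animal: the HZ was cut by laser from frozen sections, and its RNA was amplified and sequenced (RNA-Seq). The proliferative zone (PZ) of the rat tibia at the same ages and the tibia HZ of the mouse were used to show where the rat HZ differed. In the deposited list of rat samples all libraries of an age shared the same second sequencing index, so index and age cannot be told apart.

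The growth plate is a sheet of cartilage near the end of a long bone in which chondrocytes divide in columns in the PZ, then stop dividing, enlarge in the HZ, mineralize their matrix and give way to bone. Indian hedgehog (Ihh), made by chondrocytes that enter hypertrophy, and parathyroid hormone-related protein (PTHrP) set the distance at which hypertrophy starts, and bone morphogenetic proteins (BMP), C-type natriuretic peptide and insulin-like growth factors (IGF) promote growth of the plate. With age the plate undergoes senescence, its cells divide less, and a set of growth-promoting genes that are active in fetal and early postnatal tissues is turned down in many organs.

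The reads counted in genes numbered 7817389 to 11067652 per library (median 8486781) at 1 week and 17773071 to 26106573 (median 22320489) at 4 weeks, and 11172 to 11859 and 11812 to 12319 genes had at least 1 read. The older libraries were thus the deeper ones, and 3 reads corresponded to a normalized count of 4.27 to 6.7 at 1 week and of 1.89 to 2.64 at 4 weeks. A normalized count is the number of reads of a gene after the authors' correction for the size of the library, so levels are compared here between libraries and not between genes. The defining HZ marker Col10a1 was not analysed here. Of the zone markers that were, the PZ markers Gdf10, Prelp and Bmp7 were lower in HZ than in PZ (log2 difference -6.14 at 1 week and -3.42 at 4 weeks for Gdf10, -3.60 at 1 week and -2.77 at 4 weeks for Prelp and -1.53 at 1 week and -2.35 at 4 weeks for Bmp7). The HZ markers Bmp2 and Mmp13 were higher in HZ (3.19 at 1 week and 1.35 at 4 weeks for Bmp2 and 5.47 at 1 week and 5.04 at 4 weeks for Mmp13), so both ages carried the pattern of their label.

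The libraries differed in their levels of genes of the neighbouring bone and marrow. Mmp13, a collagenase of the last hypertrophic chondrocytes and of osteoblasts, had normalized counts of 113106, 31618, 15546, 123441 and 35332 at 1 week and 335047, 190154, 23582, 215658 and 194753 at 4 weeks, given here and below in the order of replicates 1 to 5. Replicates 1 and 4 at 1 week were high and replicate 3 at 4 weeks was low, and the ages overlapped. The summed level of 20 osteoblast and osteocyte markers ranged from 174409 to 471658 at 1 week and from 191734 to 1534486 at 4 weeks, and that of 23 endothelial markers from 5145 to 20448 and from 4731 to 29342. Replicate 3 at 4 weeks was lowest of its age in these sums and in osteoclast markers, and highest in B lymphocyte and erythroid markers and in the PZ markers Gdf10 and Prelp. The summed B lymphocyte markers did not overlap between the ages (781 to 1463 and 2347 to 4259), and those of macrophages and antigen presentation, 3521 to 13971 and 9915 to 20109, did. The part of bone and marrow markers in the changes below was not tested. Models that hold their scores are given below. Since the B lymphocyte sums separated the ages, the model with marrow scores cannot tell these cells from age.

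**Figure D1:**
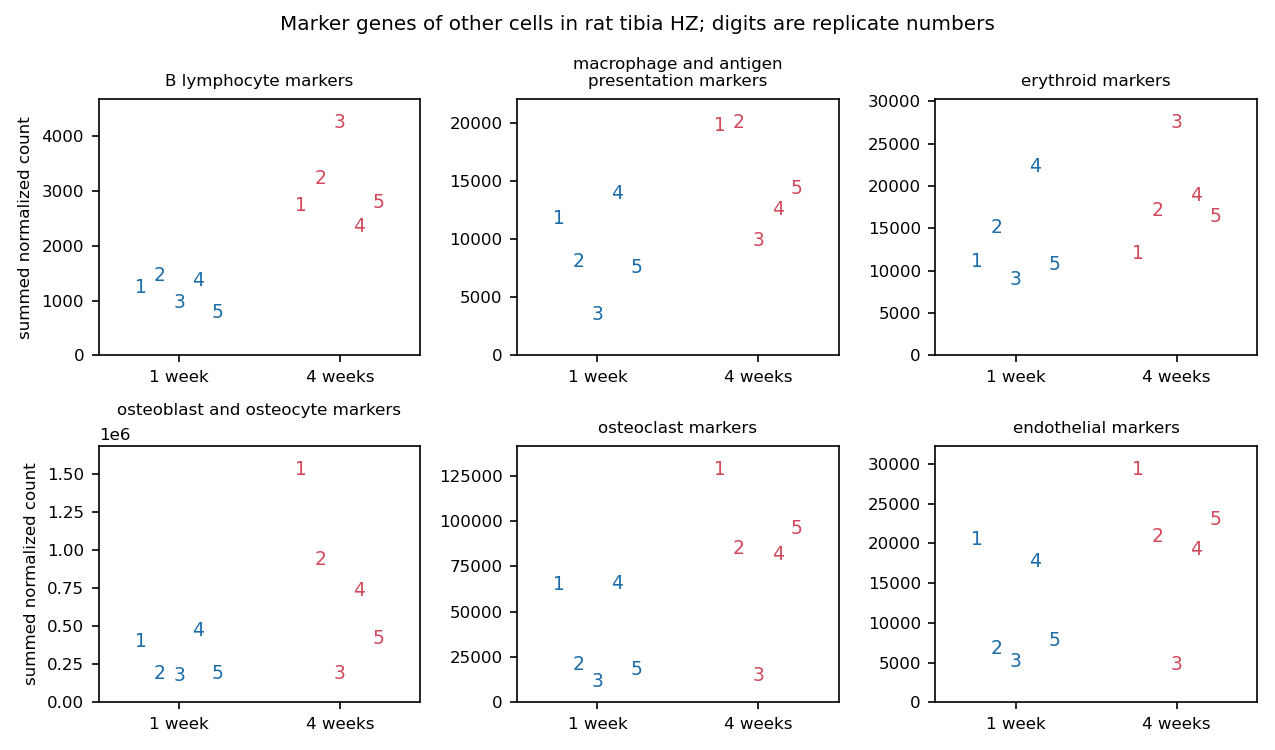
Summed normalized counts of the marker genes of 6 other cell types in each rat tibia HZ library, with 1 panel per cell type, age on the x axis and the replicate number as the plotting symbol. The B lymphocyte sums at 4 weeks (2347 to 4259) all lay above those at 1 week (781 to 1463), while the bone and endothelial sums overlapped and replicate 3 at 4 weeks fell to the level of 1 week.

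Of 11779 genes tested, 421 (3.57%) were higher and 433 (3.68%) were lower at 4 weeks by more than 2-fold at an adjusted p under 0.05. The p-values come from limma, a linear model fitted to the log2 of the normalized count plus 1 over all 30 rat libraries, and are adjusted by Benjamini-Hochberg over all genes tested. Errors of log2 fold changes are SE, errors of levels are SD, and n is 5 libraries per age throughout. Without the fold minimum 787 genes (6.68%) rose and 834 (7.08%) fell, and this rule is used for the counts of gene lists below. In 407 genes (3.46%) all 5 libraries at 4 weeks lay above all 5 at 1 week, and in 630 (5.35%) all lay below. The median log2 fold change of all genes was 0.09. The higher genes numbered 224 when only these 10 libraries were fitted, 247 in a model of read counts, 172 with osteoblast and endothelial scores in the model, and 469 without replicate 3 at 4 weeks. With scores of 3 marrow cell groups in the model 9 genes were called higher and 26 lower, of which 5 and 18 were among the genes called without the scores. These scores moved with age, so a call lost there does not show that a gene followed marrow cells.

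Of the 12 largest rises, 4 were on the list of B lymphocyte markers and 2 on that of macrophage and antigen presentation markers. Fcmr, the receptor for IgM on B cells, had normalized counts of 0, 0, 0, 0 and 0 at 1 week and 20.2, 110.2, 141, 79.2 and 74.3 at 4 weeks. It had no read in any 1-week library and was present in every 4-week library, at least 77.2-fold higher against a floor of 3 reads over the 1-week group. Cd72, a B cell coreceptor, was detected in 1 library at 1 week and had 6.89, 0, 0, 0 and 0 at 1 week and 34.7, 110.2, 284, 83.0 and 42.0 at 4 weeks (log2 fold change 5.79 ± 0.87, adjusted p = 1.9e-05). Spib, a transcription factor of B cells and plasmacytoid dendritic cells, had 0, 22.9, 17.9, 162 and 18.5 at 1 week and 395, 589, 1373, 763 and 637 at 4 weeks (log2 fold change 5.34 ± 1.00, adjusted p = 0.00047). All Spib values at 4 weeks lay above the highest value at 1 week, that of replicate 4. Ikzf3, a B cell transcription factor (4.70, adjusted p = 0.00054), Ms4a1, which encodes CD20 (4.20, adjusted p = 0.0013), and Rag1, of the recombinase that assembles antigen receptor genes (3.72, adjusted p = 0.001), rose without overlap of the ages. In bulk samples such as these, more cells of a type and more RNA per cell cannot be told apart. Fcmr, Cd72, Ikzf3 and Ms4a1 also rose in PZ (4.80, 4.65, 4.82 and 4.56, adjusted p at most 0.000343). The difference between the zones passed in none of them.

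RT1-Ba and RT1-Db1, class II antigen presentation genes whose reads near-identical copies may share, changed by 3.82 ± 0.85 and 3.98 ± 0.90 (adjusted p = 0.0021 and 0.0025). Bglap, which encodes osteocalcin of mature osteoblasts, had 3.44, 13.4, 0, 2.85 and 0 at 1 week and 259, 153, 158, 163 and 60.7 at 4 weeks (log2 fold change 5.59 ± 0.94, adjusted p = 9.3e-05). It was at or near 0 at 1 week, and its rise missed the threshold in the model of read counts. Depdc1b, a gene linked to cell division, had 3.44, 0, 0, 7.12 and 13.9 at 1 week and 54.2, 43.7, 77.4, 59.4 and 31.6 at 4 weeks (log2 fold change 3.89 ± 0.56, adjusted p = 8.8e-06), and the ages did not overlap. Cyp2c11, a cytochrome P450 of male rat liver that belongs to a family of near-identical copies, ranged from 12.4 to 53.6 at 1 week and 327 to 1600.1 at 4 weeks (log2 fold change 4.08 ± 0.48, adjusted p = 2.9e-07). Atp2a3, a calcium pump of the endoplasmic reticulum of blood cells and other types, ranged from 0 to 14.2 at 1 week and 30.9 to 119.6 at 4 weeks (log2 fold change 3.79 ± 0.93, adjusted p = 0.0052). Bglap, Cyp2c11 and Atp2a3 also rose in PZ (5.62, 3.85 and 5.15, adjusted p at most 0.000142), and Depdc1b did not (-0.16, adjusted p = 0.89).

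The largest fall was that of Cadps. The protein acts in the release of secretory vesicles, and the gene had 1404, 1079, 1551, 1042 and 1170.3 at 1 week and 0, 35.9, 38.7, 7.61 and 9.04 at 4 weeks (log2 fold change -6.88 ± 0.88, adjusted p = 1.5e-06). The ages were far apart, and 1 library at 4 weeks had no read. Kcnj6, an inwardly rectifying potassium channel, had 1521, 768, 2272, 1874 and 2680.3 at 1 week and 26.5, 21.0, 46.6, 10.7 and 103 at 4 weeks (log2 fold change -5.70 ± 0.76, adjusted p = 5e-06), again without overlap. Rimbp2, a scaffold of presynaptic release sites, ranged from 76.4 to 167 at 1 week and 1.26 to 9.04 at 4 weeks (log2 fold change -4.78 ± 0.65, adjusted p = 4.4e-06), and Nfasc, a cell adhesion protein of axons, from 15.3 to 172 at 1 week and 0 to 3.04 at 4 weeks (log2 fold change -4.87 ± 0.80, adjusted p = 6.8e-05).

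Gjb2, the gap junction protein connexin 26, had 96.5, 134, 145, 118 and 279 at 1 week and 7.57, 21.0, 0, 0 and 10.3 at 4 weeks (log2 fold change -4.97 ± 0.97, adjusted p = 0.00055). Itga8, an integrin chain, had 102, 61.1, 35.7, 58.4 and 113 at 1 week and 9.46, 1.75, 0.879, 1.52 and 1.29 at 4 weeks (log2 fold change -4.45 ± 0.55, adjusted p = 8.4e-07), and in neither gene did the ages overlap. Erbb3, a receptor of neuregulins, had a mean of 520.4 ± 142 at 1 week and 22.8 ± 6.91 at 4 weeks (log2 fold change -4.47 ± 0.60, adjusted p = 3.6e-06). Myh8, perinatal myosin heavy chain, had 24.1, 625, 804, 105 and 34.0 at 1 week and 0, 0.875, 0, 0.761 and 0 at 4 weeks, which is 797 reads against 2 and a ratio of 924 with a 95% counting interval of 255 to 7643. The 1-week values of Myh8 spread widely, with replicates 2 and 3 high. Myh3, embryonic myosin heavy chain, ranged from 24.1 to 384 at 1 week and 0 to 10.6 at 4 weeks (log2 fold change -5.12 ± 1.18, adjusted p = 0.0029). Of 15 tested skeletal muscle markers 3 fell (Tnni1, of slow muscle, with -3.52, adjusted p = 0.0084, besides the 2 myosins) and 1 rose (Tnni2, of fast muscle, 2.25, adjusted p = 0.00028). RGD1566401, a rat gene model, ranged from 205 to 456 at 1 week and 0 to 41.3 at 4 weeks (log2 fold change -4.43 ± 0.62, adjusted p = 1.5e-05).

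**Figure D2:**
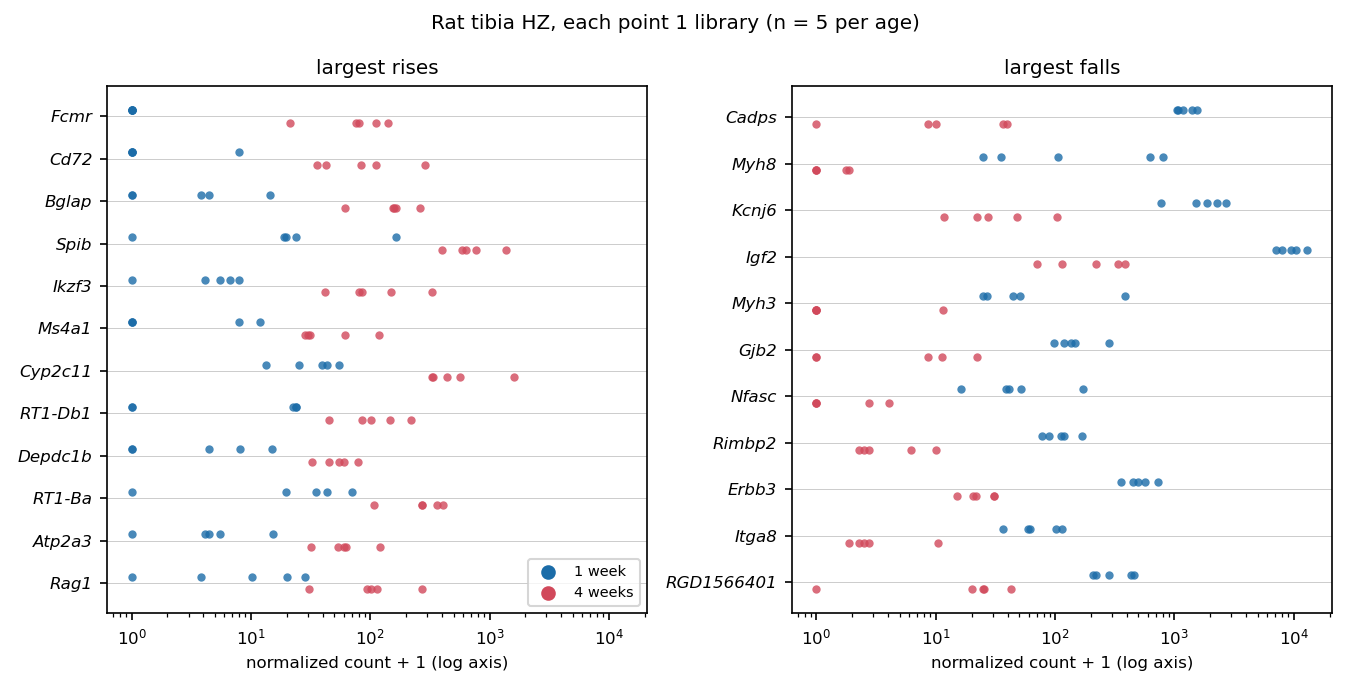
Normalized count plus 1 of the 12 largest rises (left) and 11 of the 12 largest falls (right) among genes whose ages did not overlap, on a log axis, with 1 point per library (5 at 1 week in blue, 5 at 4 weeks in red). Most of the rising genes were at or near 0 in several 1-week libraries, while the 1-week values of Cadps, Kcnj6 and Igf2 all lay far above 0.

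Imprinted genes of growth, which are expressed from 1 parental copy, moved downward where they passed the test. Of 16 tested 6 fell and none rose (1 without replicate 4 or 5 at 1 week), and the median log2 fold change was -0.80, against 0.09 over all genes. H19, a long noncoding RNA next to Igf2, had normalized counts of 257448, 363277, 422983, 259259 and 327887 at 1 week and 26146, 22806, 42681, 19454 and 29984 at 4 weeks (log2 fold change -3.56 ± 0.20, adjusted p = 8.8e-15). All 1-week libraries lay far above all 4-week libraries. Igf2, the fetal insulin-like growth factor, had 7105, 10487, 13028, 8012 and 9525 at 1 week and 384, 70.0, 219.8, 113 and 333 at 4 weeks (log2 fold change -5.65 ± 0.37, adjusted p = 6.5e-11), and the ages were far apart. Peg3, a zinc finger protein, fell less, with 102770.0, 127432, 145760.0, 82064 and 113436 at 1 week and 40201, 48649, 98222, 57670.1 and 52543 at 4 weeks (log2 fold change -0.99 ± 0.18, adjusted p = 0.00033), and replicate 3 at 4 weeks reached into the 1-week range. Dlk1, a Notch-related growth regulator (-3.59, adjusted p = 0.00031), Impact, an inhibitor of the kinase Gcn2 (-1.08, adjusted p = 0.00016), and Zim1, a zinc finger neighbour of Peg3 (-0.93, adjusted p = 0.0024), fell as well. H19, Igf2 and Peg3 also passed the test with the marrow scores in the model (-3.63, -6.14 and -1.52, adjusted p = 8e-06, 0.0042 and 0.049).

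Gpc3 and Plag1, fetal growth regulators that are not imprinted, fell in the same libraries. Gpc3, a cell surface proteoglycan whose loss causes overgrowth, had 651, 1106, 1262, 1273 and 1930.0 at 1 week and 36.6, 139.9, 253, 174 and 121 at 4 weeks (log2 fold change -3.25 ± 0.32, adjusted p = 3.2e-08). Plag1, a zinc finger activator of Igf2, had 307, 239, 252.5, 407 and 520.3 at 1 week and 129.9, 28.9, 82.6, 42.6 and 41.3 at 4 weeks (log2 fold change -2.54 ± 0.35, adjusted p = 5e-06), and in both genes the ages did not overlap. Of 10 tested regulators of this kind these 2 fell and 1 rose, which was Myc (0.61, adjusted p = 0.022); the change of Myc was 0.49 with adjusted p = 0.082 without replicate 5 of the 1-week libraries and 0.51 with adjusted p = 0.07 without replicate 3 of the 4-week libraries.

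Of 25 tested genes of the IGF and growth hormone pathway 4 fell and 4 rose, with 2 rises without replicate 2 at 1 week or 1 at 4 weeks. Igf1 was not analysed here. Besides the ligand Igf2, the receptor Igf1r, which carries the signal of both ligands, had a mean of 2694 ± 857 at 1 week and 1342 ± 376 at 4 weeks and fell (log2 fold change -0.98 ± 0.20, adjusted p = 0.00082), with replicate 3 at 4 weeks inside the 1-week range. The binding protein Igfbp5 had 217, 369, 299, 222 and 298 at 1 week and 44.2, 82.2, 52.8, 57.1 and 43.9 at 4 weeks (log2 fold change -2.32 ± 0.50, adjusted p = 0.0018), without overlap, and the adaptor Irs2 changed by -0.70 ± 0.19 (adjusted p = 0.0098). Among the genes that rose were Igfbp7, a secreted protein with low affinity for IGF (1.89, adjusted p = 0.0077), the growth hormone signalling kinase Jak2 (0.73, adjusted p = 0.012) and Stc1, an inhibitor of the protease PAPP-A (2.94, adjusted p = 0.024). Jak2 changed by 0.62 with adjusted p = 0.051 without replicate 1 of the 4-week libraries and Stc1 by 2.60 with adjusted p = 0.066 without replicate 2 of the 1-week libraries. Igfbp7 is also a gene of vessels, and its lowest 4-week value, 1055, was that of replicate 3, in which endothelial markers were lowest.

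C-type natriuretic peptide, which acts through the receptor Npr2 and cyclic GMP, promotes growth of the plate. Of 8 tested genes of its pathway 4 fell and 1 rose. Npr2 had normalized counts of 1872, 2168, 1555, 1551 and 2592 at 1 week and 749, 701, 797, 759 and 872 at 4 weeks (log2 fold change -1.30 ± 0.16, adjusted p = 7.2e-07). The 4-week libraries lay within a narrow range below all 1-week libraries. Npr3, which clears the peptide, had 598, 642, 802, 622 and 791 at 1 week and 34.7, 253, 103, 84.5 and 242 at 4 weeks (log2 fold change -2.59 ± 0.52, adjusted p = 0.00089). Prkg1, a kinase activated by cyclic GMP, had 839, 961, 1063, 766 and 862 at 1 week and 189, 201, 294, 125 and 153 at 4 weeks (log2 fold change -2.27 ± 0.31, adjusted p = 3.6e-06), and like Npr3 it showed no overlap. Furin, a protease that processes many precursors including that of the peptide, changed by -0.97 ± 0.19 (adjusted p = 0.00068) with overlap. The peptide itself, Nppc, had a log2 fold change of -1.91 ± 1.13 and did not pass (adjusted p = 0.26). It had 60 reads over the 1-week libraries and 0 over the 4-week libraries, sums that do not show how the reads were spread over the animals. When 1 library was left out its change ranged from -2.39 to -0.78. The smallest change and the highest adjusted p, 0.677, came without replicate 5 at 1 week, so the fall rested largely on that library. Pde5a, which degrades cyclic GMP and is abundant in smooth muscle, rose by 2.04 ± 0.60 (adjusted p = 0.019), with 1.41 with adjusted p = 0.081 without replicate 2 of the 1-week libraries and 1.81 with adjusted p = 0.062 without replicate 1 of the 4-week libraries.

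Of 33 tested prehypertrophic and hypertrophic genes 10 fell and 2 rose, with a median log2 fold change of -0.34. The counts were 7 and 0 without replicate 1 at 4 weeks and 9 and 2 without replicate 3, and 1 rose without replicate 3 or 5 at 1 week. Ihh had normalized counts of 7296, 12634, 13711, 8140.4 and 11178 at 1 week and 1687, 3913, 3474, 3550.0 and 6087 at 4 weeks (log2 fold change -1.57 ± 0.28, adjusted p = 0.00024). The highest 4-week library lay below the lowest 1-week library. Mef2d, a transcription factor that with its relatives starts hypertrophy, had 8124, 11872, 12588, 8103 and 10650.4 at 1 week and 2583, 4296, 3024, 3905 and 7082 at 4 weeks (log2 fold change -1.36 ± 0.23, adjusted p = 0.00011), also without overlap. Nfatc1, a transcription factor, and Runx2, the master regulator of hypertrophy and bone, changed by -0.87 ± 0.20 and -0.67 ± 0.19 (adjusted p = 0.0028 and 0.015), and Runx2 by -0.57 with adjusted p = 0.064 without replicate 1 of the 4-week libraries. Foxa3, a forkhead factor of hypertrophy, Fgfr3, the receptor that restrains growth of the plate, and Scin, an actin-severing protein, fell too (-1.73, -0.88 and -0.67, adjusted p = 0.0066, 0.011 and 0.014). The change of Fgfr3 was -0.68 with adjusted p = 0.053 without replicate 1 of the 4-week libraries, and that of Scin was -0.55 with adjusted p = 0.059 without replicate 5 of the 1-week libraries and -0.54 with adjusted p = 0.07 without replicate 1 of the 4-week libraries.

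Ihh belongs to the hedgehog and PTHrP loop, of which 17 genes were tested, 5 fell and 1 rose. The rises numbered 3 without replicate 1 or 4 and 2 without replicate 3 at 1 week, and 0 without replicate 1 or 2 at 4 weeks. Disp1, which releases the hedgehog ligand from the cell, had 3727, 5207, 4766, 2929 and 3633 at 1 week and 1101, 1917, 2702, 2091 and 2789 at 4 weeks (log2 fold change -0.98 ± 0.20, adjusted p = 0.00099), and Cdon, a coreceptor, ranged from 992 to 1257 at 1 week and 375 to 836 at 4 weeks (log2 fold change -0.95 ± 0.23, adjusted p = 0.0038). Neither showed overlap between the ages. Hdac4, which holds back Mef2 factors, changed by -0.96 ± 0.24 (adjusted p = 0.0059). Sik3, a kinase that acts on Hdac4, changed by -0.62 ± 0.17 (adjusted p = 0.014), with -0.53 with adjusted p = 0.056 without replicate 3 of the 1-week libraries and -0.47 with adjusted p = 0.072 without replicate 1 of the 4-week libraries. Pth1r, the PTHrP receptor, had a log2 fold change of -0.49 ± 0.19 (adjusted p = 0.083) and did not pass, with -0.63, adjusted p = 0.0235 without replicate 5 at 4 weeks. The gene that rose was Gli1, a target of the pathway, with 188, 162, 4.47, 135 and 61.8 at 1 week and 276, 390.1, 257, 237 and 149.8 at 4 weeks (log2 fold change 1.89 ± 0.57, adjusted p = 0.026). Its rise was 1.85 with adjusted p = 0.056 without replicate 1 of the 4-week libraries and 1.73 with adjusted p = 0.065 without replicate 2 of the 4-week libraries. The rise was smallest, 0.98, without replicate 3 at 1 week, the library with 4.47, though it passed there. When only the 10 libraries were fitted Gli1 did not pass (adjusted p = 0.185).

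**Figure D3:**
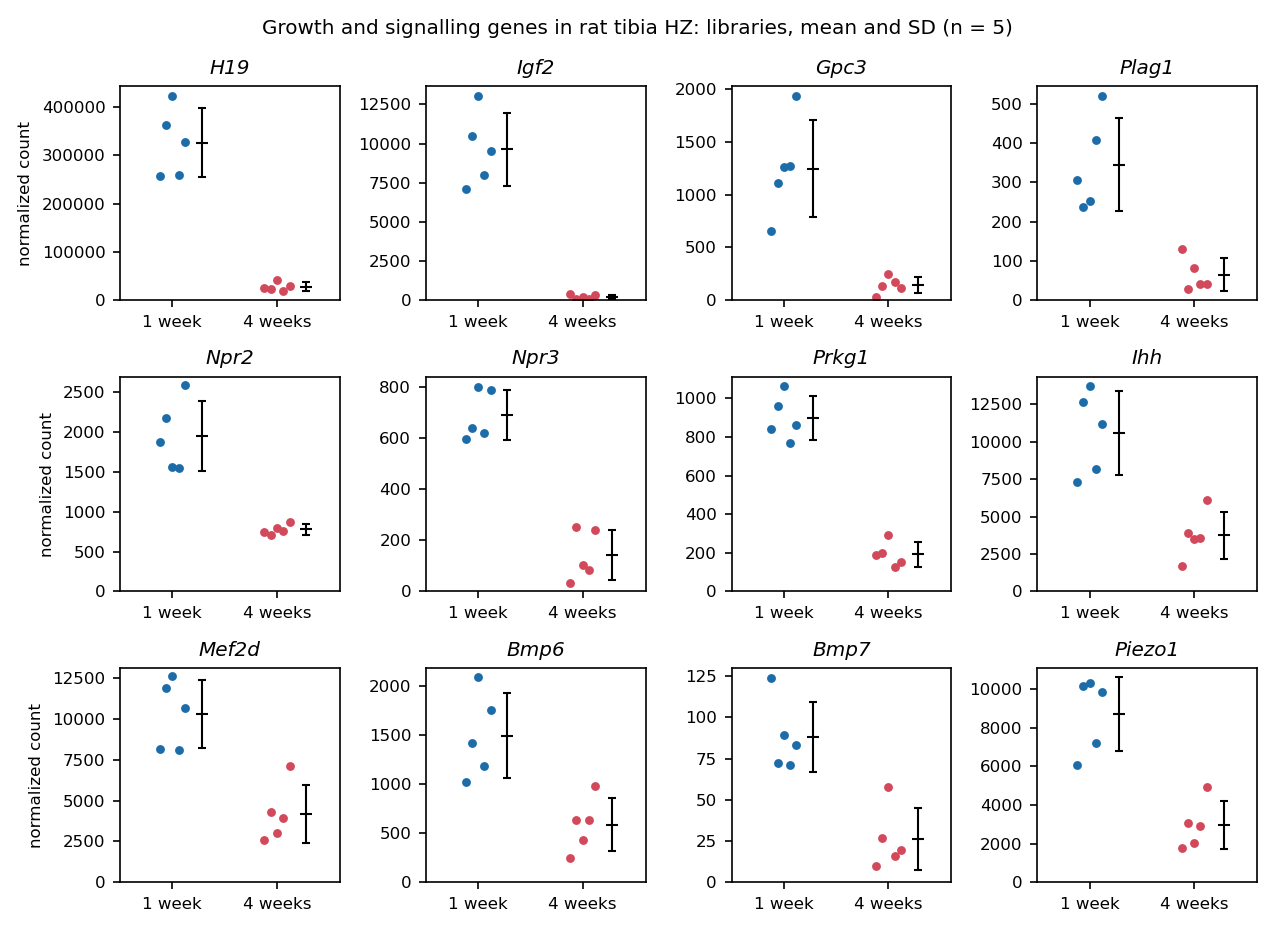
Normalized counts of 12 growth and signalling genes in each rat tibia HZ library at 1 week (blue) and 4 weeks (red), on linear axes from 0, with black bars for the mean ± SD of 5 libraries. The genes were chosen, and in all 12 every 4-week library lay below every 1-week library, which was so in 5.35% of all genes tested. Genes of these pathways that overlapped between the ages, such as Furin and Igf1r, or rose, such as Gli1 and Pde5a, are not shown.

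BMP ligands moved in both directions. Of 11 tested 2 fell and 2 rose. Bmp6, a ligand of prehypertrophic cells, had 1021, 1421, 2091, 1180.4 and 1760.1 at 1 week and 251.7, 635, 436, 634 and 984 at 4 weeks (log2 fold change -1.43 ± 0.31, adjusted p = 0.0014), and Bmp7, which marked the PZ, had 124, 72.6, 89.4, 71.2 and 83.4 at 1 week and 10.1, 27.1, 58.0, 16.0 and 19.4 at 4 weeks (log2 fold change -1.93 ± 0.33, adjusted p = 0.00013). Both fell without overlap of the ages. Gdf10, the other ligand that marked the PZ, rose, with 13.8, 64.9, 8.94, 42.7 and 49.4 at 1 week and 92.1, 66.5, 431, 113 and 71.0 at 4 weeks (log2 fold change 2.00 ± 0.49, adjusted p = 0.0064). Replicate 3 at 4 weeks was the highest of these values by far, and without it the log2 fold change was 1.53, adjusted p = 0.021. Gdf10 did not pass in the model of read counts (1.89, adjusted p = 0.164) or when only the 10 libraries were fitted (adjusted p = 0.06). Bmp3, a ligand of osteoblasts that opposes other BMPs, had 288, 70.7, 49.2, 225 and 102 at 1 week and 858, 925, 108, 414 and 467 at 4 weeks (log2 fold change 1.89 ± 0.59, adjusted p = 0.03) and lost its call in 5 of 10 fits that each left out 1 library (without replicate 2, 3 or 5 at 1 week or 1 or 2 at 4 weeks, highest adjusted p = 0.0974) and in the model of read counts (adjusted p = 0.115). Bmp2 had a log2 fold change of -0.77 ± 0.29 (adjusted p = 0.07), and passed without replicate 1 at 1 week or 5 at 4 weeks (-0.99, adjusted p = 0.0175 without the latter).

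Of 16 tested BMP antagonists 3 rose and 1 fell, with 2 falls without replicate 4 at 1 week or 4 or 5 at 4 weeks. Chrdl1, a secreted antagonist related to chordin, had 329, 453, 393, 225 and 227 at 1 week and 834, 1241, 3301, 1763 and 1162 at 4 weeks (log2 fold change 2.23 ± 0.32, adjusted p = 1.2e-05). Htra1, a secreted protease that binds growth factors of the TGF-beta family, had 313, 80.2, 31.3, 416 and 77.2 at 1 week and 1236, 1096, 421, 818 and 703 at 4 weeks (log2 fold change 2.72 ± 0.53, adjusted p = 0.00082). In neither gene did the ages overlap, and Htra1 was highest at 1 week in the 2 libraries with the most bone markers. Smurf2, a ubiquitin ligase that removes receptors and Smads, rose by 0.76 ± 0.18 and Crim1, a transmembrane antagonist, changed by -0.87 ± 0.18 (adjusted p = 0.0042 and 0.0011). Of 19 tested receptors, Smads and targets 4 fell and 1 rose, with 2 rises without replicate 1 at 1 week and 0 without replicate 3 at 1 week or 1 at 4 weeks. Smad4, the shared partner of all receptor-activated Smads, had 5536, 6382, 8517, 6493 and 7261 at 1 week and 2577, 3270.1, 2917, 4323 and 5633 at 4 weeks (log2 fold change -0.91 ± 0.17, adjusted p = 0.0003), with overlap in replicate 5 at 4 weeks. Acvr1b, an activin receptor, changed by -1.65 ± 0.40, and Smad5, a transducer of BMP signals, by -0.53 ± 0.14 (adjusted p = 0.0052 and 0.0089). Bmpr1b, a BMP receptor at low counts, ranged from 3.82 to 71.2 at 1 week and 0 to 6.31 at 4 weeks (log2 fold change -3.62 ± 0.75, adjusted p = 0.0011).

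The main structural genes of cartilage did not pass the test. Col2a1, the collagen of cartilage, had 2591160.0 ± 634112 at 1 week and 2859070.0 ± 1151290.0 at 4 weeks (log2 fold change 0.08 ± 0.22, adjusted p = 0.85), Acan, the large aggregating proteoglycan, a log2 fold change of -0.27, adjusted p = 0.44, and Sox9, the master regulator of chondrocytes, of 0.12, adjusted p = 0.79. Of 31 tested cartilage matrix genes 7 rose and 3 fell, and without replicate 3 at 4 weeks the counts were 5 and 5. Scrg1, a small secreted protein of chondrocytes, had 99.9, 246, 297, 48.4 and 119 at 1 week and 964, 1006, 3271, 1593 and 531 at 4 weeks (log2 fold change 3.18 ± 0.43, adjusted p = 1.3e-05). All 4-week libraries lay above all 1-week libraries, and without replicate 3 the change was 2.82, adjusted p = 3.5e-05. Ucma, a cartilage protein of immature chondrocytes, had 262, 178, 165, 78.3 and 134 at 1 week and 739, 315, 2184, 1193 and 528 at 4 weeks (log2 fold change 2.38 ± 0.42, adjusted p = 0.00037), and without that library the change was 2.02, adjusted p = 0.0012. Matn1, a matrilin, fell, with 6135, 11114, 11587, 7457 and 12451 at 1 week and 2362, 1999, 6319, 2499 and 1621 at 4 weeks (log2 fold change -1.85 ± 0.30, adjusted p = 9.6e-05), and here the same library was the 1 that overlapped the 1-week range. Fibin, a secreted protein, had a log2 fold change of -1.45, adjusted p = 0.00047.

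Of 10 tested small leucine-rich proteoglycans 5 rose and 1 fell. These proteins bind collagen fibrils and growth factors. Fmod, fibromodulin, had 36714, 66999, 37262, 26892 and 30274 at 1 week and 68079, 96049, 291970.0, 153708 and 93062 at 4 weeks (log2 fold change 1.70 ± 0.31, adjusted p = 0.00046), without overlap, and 1.39, adjusted p = 0.0012 without replicate 3 at 4 weeks. Bgn, biglycan, had 49752, 92479, 84976, 62481 and 77850.4 at 1 week and 83578, 102997, 197419, 128449 and 141112 at 4 weeks (log2 fold change 0.80 ± 0.21, adjusted p = 0.0073), and Prelp, which marked the PZ, had 3681, 8743, 3997, 3087 and 4887 at 1 week and 7894, 10124, 34601, 15432 and 6625 at 4 weeks (log2 fold change 1.44 ± 0.36, adjusted p = 0.0073), or 1.06, adjusted p = 0.022 without replicate 3. In Bgn and Prelp the ages overlapped, and replicate 3 at 4 weeks was highest in all 3 genes. Nyx, nyctalopin, rose by 4.02 ± 0.95 and Chad, chondroadherin, by 0.69 ± 0.24 (adjusted p = 0.0039 and 0.0498). Nyx had no read at 1 week and 105 reads at 4 weeks, at least 15.1-fold higher against a floor of 3 reads over the 1-week group. The change of Chad was below 2-fold. It did not pass in 7 of 10 fits that left out a library (without replicate 1, 3, 4 or 5 at 1 week or 3, 4 or 5 at 4 weeks), with changes of 0.52 to 0.68 and adjusted p of 0.075 to 0.17. Epyc, epiphycan, changed by -1.51 ± 0.29 (adjusted p = 0.00061).

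Of 38 tested matrix proteases and inhibitors 8 rose and 3 fell. The rises numbered 13 without replicate 3 at 4 weeks and 5 without replicate 2 at 1 week or 1 at 4 weeks. The falls were in the family of Adamts genes: Adamts3, which trims procollagen II, had 3164, 3717, 4535, 2737 and 2959.8 at 1 week and 1063, 1462, 2247, 1440.1 and 1613 at 4 weeks (log2 fold change -1.15 ± 0.19, adjusted p = 9.6e-05), Adamtsl4, a fibrillin-binding relative, ranged from 728 to 1229 at 1 week and 209 to 431 at 4 weeks (log2 fold change -1.59 ± 0.24, adjusted p = 2e-05), and Adamts14, a procollagen protease, changed by -1.95 ± 0.39 (adjusted p = 0.00078). None of the 3 overlapped between the ages. Mmp2, gelatinase A, had 606, 157, 121, 735 and 187 at 1 week and 2191, 1568, 556, 1265 and 960.3 at 4 weeks (log2 fold change 2.10 ± 0.39, adjusted p = 0.00057), and Timp1, an inhibitor of metalloproteinases, had 822, 325, 188, 528 and 202 at 1 week and 1849, 1400.2, 589.9, 1276 and 1272 at 4 weeks (log2 fold change 1.77 ± 0.35, adjusted p = 0.00076). In Mmp2 and Timp1 the lowest 4-week value was that of replicate 3, and the highest 1-week values were those of replicates 1 and 4, the same libraries in which bone and endothelial markers were low or high. Of 15 fibrous and bone collagens none passed the test, with up to 2 higher and 1 lower when 1 library was left out (2 without replicate 3 at 4 weeks), and Col1a1, of bone and fibrous tissue, had a log2 fold change of 2.16 ± 0.83 (adjusted p = 0.082), which was 2.60 with adjusted p = 0.047 without that library and passed in none of the other 9 fits that left out a library.

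Serpinh1, the chaperone of collagen in the endoplasmic reticulum, rose evenly, with 9129, 10859.6, 11821, 9317 and 9619 at 1 week and 18529, 19064, 27613, 22062 and 22399 at 4 weeks (log2 fold change 1.10 ± 0.14, adjusted p = 1.7e-06). Its ages did not overlap, and it passed with the marrow scores in the model (1.71, adjusted p = 0.0042). Of 22 genes of collagen crosslinking and hydroxylation 5 rose, among them Loxl3, a lysyl oxidase (0.83), and 2 fell, among them Loxl4, a relative of it (-1.28). The rises numbered 3 without replicate 4 at 1 week, and the falls 1 without replicate 2, 3 or 5 at 1 week or 1, 2 or 4 at 4 weeks. Sulf2, which removes sulfate from heparan sulfate, had 822, 1039, 1468, 766 and 1441 at 1 week and 162, 273, 189.9, 186 and 249 at 4 weeks (log2 fold change -2.35 ± 0.28, adjusted p = 5.1e-07), without overlap, and was among 4 of 40 genes of sulfated glycosaminoglycans that fell, while 3 rose. These counts were 2 falls without replicate 1 at 4 weeks and 6 rises without replicate 4 at 1 week or 3 at 4 weeks. Of 27 mineralization genes 5 rose and 3 fell, and the rises numbered 2 without replicate 1, 2 or 4 at 4 weeks, 3 without replicate 2 or 3 at 1 week and 1 in the model of read counts. Sparc, osteonectin, had 150855, 232563, 230781, 214678 and 271386 at 1 week and 436661, 412042, 503808, 399224 and 345000.0 at 4 weeks (log2 fold change 0.95 ± 0.17, adjusted p = 0.00028), and Slc20a2, a phosphate transporter, had 508, 611, 592, 655 and 406 at 1 week and 353, 254, 241, 235 and 244 at 4 weeks (log2 fold change -1.06 ± 0.18, adjusted p = 0.00011), neither with overlap. Pdpn and Phex, both made by osteocytes among other cells, rose by 1.88 and 2.39 (adjusted p = 0.028 and 0.034), and the calls were lost in 5 and in 6 of those 10 fits (highest adjusted p = 0.0945 and 0.104).

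Ion transport and the response to stretch accompany the swelling of hypertrophic cells. Of 30 tested genes of these processes 7 fell and none rose, the median log2 fold change was -0.36, and without replicate 3 at 4 weeks 9 fell. Piezo1, a channel opened by membrane tension, had 6087, 10139, 10306, 7225 and 9829 at 1 week and 1806, 3094, 2063, 2905 and 4955 at 4 weeks (log2 fold change -1.62 ± 0.20, adjusted p = 7e-07). Slc4a3, an exchanger of chloride and bicarbonate, had 3055, 2617, 4261, 2507 and 3347 at 1 week and 658, 987, 786, 1062 and 2236 at 4 weeks (log2 fold change -1.58 ± 0.25, adjusted p = 5.7e-05), and in both genes every 4-week value lay below every 1-week value. Trpv4, a calcium channel of chondrocytes opened by osmotic and mechanical stimuli, ranged from 2634 to 4269 at 1 week and 793 to 2424 at 4 weeks (log2 fold change -1.19 ± 0.22, adjusted p = 0.00033), and Slc4a4, a sodium bicarbonate cotransporter, from 773 to 1622 at 1 week and 351 to 690.4 at 4 weeks (log2 fold change -1.15 ± 0.21, adjusted p = 0.00028). Oxsr1 and Stk39, kinases of the response to cell volume, and Lrrc8c, a subunit of the volume-regulated anion channel, changed by -0.59, -0.71 and -0.63 (adjusted p = 0.013, 0.026 and 0.016). The change of Lrrc8c was -0.56 with adjusted p = 0.054 without replicate 3 of the 1-week libraries and -0.52 with adjusted p = 0.07 without replicate 1 of the 4-week libraries. Stk39 did not pass without replicate 3 or 5 at 1 week or 1 or 2 at 4 weeks, with changes of -0.69 to -0.57 and adjusted p of 0.054 to 0.099. Slc12a2, a sodium-potassium-chloride cotransporter, had a log2 fold change of 0.16, adjusted p = 0.56.

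Of 40 tested genes of G2 and mitosis 13 rose and none fell (median 0.72), and of 36 genes of S phase 7 rose and none fell (median 0.51). Top2a, topoisomerase II, had 1786, 881, 509, 1858 and 619 at 1 week and 3231, 2608, 3472, 1855 and 1456 at 4 weeks (log2 fold change 1.28 ± 0.27, adjusted p = 0.0014), Kif11, a spindle motor, 530.5, 218, 199, 508 and 178 at 1 week and 639.6, 519.5, 785, 555 and 473 at 4 weeks (log2 fold change 1.01 ± 0.24, adjusted p = 0.0041), and Mcm6, of the replicative helicase, 72.3, 153, 26.8, 252.03 and 66.4 at 1 week and 236, 194, 245, 304 and 180.2 at 4 weeks (log2 fold change 1.38 ± 0.34, adjusted p = 0.0059). Replicates 1 and 4 were the high 1-week libraries in Top2a and Kif11, and in no member of these lists did the ages separate. The G2 and mitosis genes that rose numbered 5 without replicate 3 at 1 week, 21 without replicate 4 at 1 week, 2 when only the 10 libraries were fitted and 6 in the model of read counts, and those of S phase 3, 10, 1 and 2. Without replicate 1 at 4 weeks they numbered 8 and 3, and without replicate 3 at 4 weeks 9 and 4. Aurkb, a mitotic kinase, and Pcna, the replication clamp, changed by 1.24 ± 0.26 and 0.94 ± 0.25 (adjusted p = 0.0012 and 0.0093). Cdkn1b, a cell cycle inhibitor, rose without overlap by 0.74 ± 0.19 (adjusted p = 0.0085).

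Of 67 genes of the mitochondrial respiratory chain 14 rose and none fell, each by less than 2-fold, with a median log2 fold change of 0.32. The count was 7 without replicate 1 at 4 weeks, 9 without replicate 3 at 1 week and 0 with bone and endothelial scores in the model. Ndufb11, of complex I, had 226, 321, 313, 296 and 298 at 1 week and 639.6, 457, 475, 500.1 and 414 at 4 weeks (log2 fold change 0.77 ± 0.18, adjusted p = 0.0041), and Uqcrc2, of complex III, ranged from 436 to 706 at 1 week and 772 to 1009 at 4 weeks (log2 fold change 0.74 ± 0.19, adjusted p = 0.006). Neither gene overlapped between the ages. Of 34 genes of cholesterol and fatty acid synthesis none rose and 5 fell (median -0.36), with 1 falling without replicate 3 at 1 week and 2, 3, 8 and 3 without replicates 1 to 4 at 4 weeks in turn. Acaca, the first enzyme of fatty acid synthesis, changed by -0.72 ± 0.20 (adjusted p = 0.015), with -0.61 with adjusted p = 0.063 without replicate 3 of the 1-week libraries. Car9, a carbonic anhydrase induced by low oxygen, had 79.2, 227, 24.6, 45.6 and 71.0 at 1 week and 193, 211, 818, 312 and 209.9 at 4 weeks (log2 fold change 2.09 ± 0.40, adjusted p = 0.00068), highest in replicate 3 at 4 weeks.

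Markers of marrow, vessel and bone cells were counted in the same way. Of 16 tested B lymphocyte markers 11 rose and none fell (median 3.38), and in 8 of the 16 all 4-week libraries lay above all 1-week libraries. Of 21 markers of macrophages and antigen presentation 9 rose and none fell (median 2.25), among them C1qb, a complement chain of macrophages (3.94, adjusted p = 0.0022), and Cd74, the invariant chain (3.27, adjusted p = 0.0027). Of 27 interferon response genes 5 rose (3 without replicate 3 at 1 week) and none fell (median 1.50), with Ifi27, a mitochondrial protein, at a log2 fold change of 1.63, adjusted p = 0.0029. Of 18 erythroid markers 1 rose, Trim10 (1.28, adjusted p = 0.04), whose call was lost in 7 of 10 fits that left out a library (without replicate 1, 3 or 5 at 1 week or 2, 3, 4 or 5 at 4 weeks, with changes of 1.03 to 1.29 and adjusted p of 0.056 to 0.12). Hba1, a globin, had a log2 fold change of 0.25, adjusted p = 0.85. Of 16 osteoblast and osteocyte markers 4 rose (median 1.72). Their number was 7 without replicate 3 at 4 weeks, 1 without replicate 2 at 1 week or 1 or 2 at 4 weeks, 2 without replicate 3 or 5 at 1 week or 4 at 4 weeks, and 0 in the model of read counts. None of 23 endothelial markers passed the test (median 1.07), 1 rose without that library, and Cdh5, of vessel junctions, had a log2 fold change of 1.08, adjusted p = 0.44. Of 8 adipocyte markers 3 rose, among them Adipoq, adiponectin (3.72, adjusted p = 0.0024), and Plin1, a coat protein of lipid droplets (3.49, adjusted p = 0.0019). In the model of read counts 1 of the 8 rose, and Adipoq and Plin1 did not pass (adjusted p = 0.151 and 0.0506). Over all lists of marrow cells 24 of 84 tested genes rose by more than 2-fold and 2 fell. At an adjusted p under 0.05, 12 of the 16 B lymphocyte markers (median 4.0) also rose in PZ. So did 16 of the 21 macrophage and antigen presentation markers (3.01) and 6 of the 8 adipocyte markers (3.01). These rises were therefore not particular to HZ.

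**Figure D4:**
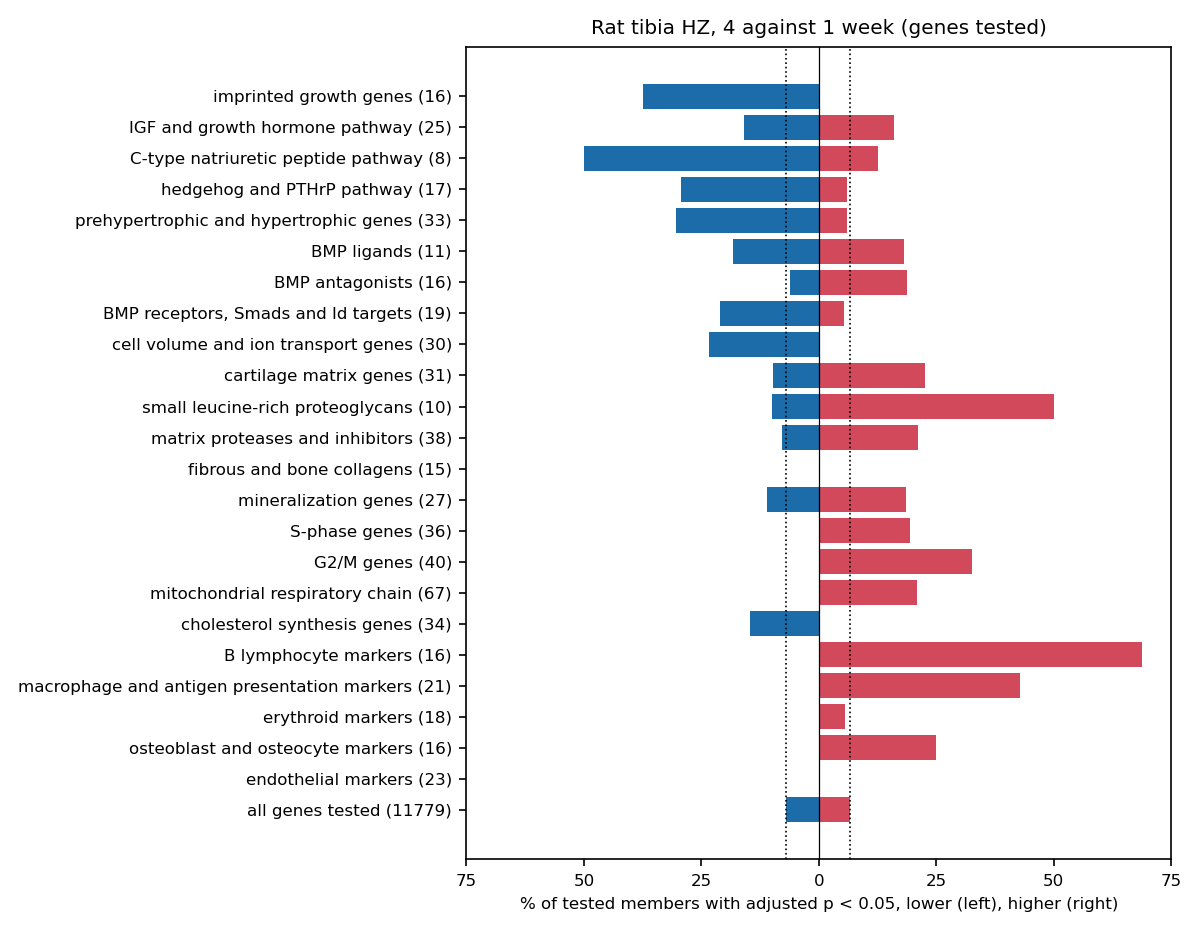
Percent of the tested members of chosen gene lists, a part of the 50, that fell (blue, to the left) or rose (red, to the right) at 4 weeks in rat tibia HZ at an adjusted p under 0.05. The number tested is in parentheses, and dotted lines mark the percent over all genes (7.08 and 6.68). Among the lists shown, imprinted, natriuretic peptide, hypertrophy and ion transport genes lay mainly on the side of falls. B lymphocyte, macrophage, cell cycle and respiratory chain genes lay on the side of rises. Lists not shown include mixed ones, such as hypoxia and glycolysis (4 of 36 rose and 3 fell).

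The rat tibia PZ gave 680 genes higher (5.77%) and 359 lower (3.05%) at 4 weeks by the same rule. Of these, 121 were higher in both zones (28.7% of the HZ genes and 17.8% of the PZ genes) and 104 were lower in both (24.0% and 29.0%), while 3 and 5 moved in opposite directions. Without the fold minimum 1137 of the 11779 genes rose in PZ and 759 fell. The PZ counts of gene lists use this rule. The difference between the age changes of the zones was tested directly, with PZ and HZ libraries treated as independent. The change was more positive in HZ than in PZ in 180 genes (1.53%) and more negative in 332 (2.82%). Igf2 and H19 fell in PZ too (-6.18, adjusted p = 7.8e-12 and -2.85, adjusted p = 3.6e-12), and their difference between zones did not pass (adjusted p = 0.7 and 0.18). Gpc3, Plag1, Npr2 and Prkg1 likewise fell in PZ (-2.31, -3.65, -0.72 and -1.94, adjusted p at most 0.0014), with no difference between zones that passed (adjusted p = 0.29, 0.24, 0.16 and 0.78).

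In Ihh the change in PZ was 0.19, adjusted p = 0.7, and the difference between zones was -1.76 ± 0.39, adjusted p = 0.0063. The difference was -1.60 ± 0.33, adjusted p = 0.0027 for Mef2d, -2.21 ± 0.43, adjusted p = 0.0016 for Bmp6, -1.64 ± 0.27, adjusted p = 0.00024 for Pth1r and -1.32 ± 0.28, adjusted p = 0.0036 for Piezo1. It was -1.70 ± 0.36, adjusted p = 0.0037 for Slc4a3 and -3.38 ± 0.71, adjusted p = 0.0036 for Igfbp5. Of the 33 prehypertrophic and hypertrophic genes 12 had a more negative change in HZ and none a more positive one, and of the 30 ion transport genes 11 and none. In PZ, 11 of these 33 genes rose and none fell (median log2 fold change 0.59). Of the 30 ion transport genes 11 rose and 1 fell there (median 0.36). The zone differences of these lists thus held rises in PZ as well as falls in HZ. The excess of these genes in HZ over PZ was thereby smaller at 4 weeks (log2 difference for Ihh 2.88 at 1 week and 1.12 at 4 weeks, for Bmp6 3.80 at 1 week and 1.59 at 4 weeks and for Piezo1 2.60 at 1 week and 1.28 at 4 weeks). Among genes of the PZ, the change was more positive in HZ for Gdf10 (2.72 ± 0.69, adjusted p = 0.02) and Ucma (2.23 ± 0.60, adjusted p = 0.029), whereas the difference did not pass for the PZ markers Prelp (0.82 ± 0.50, adjusted p = 0.45) and Bmp7 (-0.82 ± 0.47, adjusted p = 0.41). Ucma lost this call in 3 of 10 fits (highest adjusted p = 0.056), and without replicate 3 at 4 weeks the differences were 2.25 for Gdf10 and 1.87 for Ucma (adjusted p = 0.026 and 0.045).

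The most positive differences between zones came from genes that fell in PZ. Crabp1, a binding protein of retinoic acid, had no read in HZ at 1 week and 24 reads at 4 weeks, and its change in PZ was -6.83, adjusted p = 2.3e-07. Shisa3, an inhibitor of Wnt and FGF receptors, had 4 reads and 0 reads in HZ and a change of -6.07, adjusted p = 5.7e-06 in PZ. Vsnl1, a calcium sensor, and Slit1, a guidance ligand, were at low counts in HZ at both ages (means 7.78 ± 15.0 at 1 week and 5.27 ± 6.37 at 4 weeks for Vsnl1 and 7.44 ± 6.08 at 1 week and 12.8 ± 8.82 at 4 weeks for Slit1) and changed by -6.23 and -4.89 in PZ. Notum, which inactivates Wnt proteins, had 8.61, 3.82, 0, 59.8 and 74.1 at 1 week and 212, 86.6, 3.52, 120.3 and 64.6 at 4 weeks in HZ, with a change of 2.33, adjusted p = 0.072 there and of -3.18, adjusted p = 0.011 in PZ. Replicate 3 at 4 weeks stood far below the others in Notum, and without it the change in HZ was 3.25, adjusted p = 0.0046. Notum also passed without replicate 4 or 5 at 1 week, and its change was 1.44, adjusted p = 0.253 without replicate 3 at 1 week. Lrp3, a receptor of the low-density lipoprotein family, ranged from 0 to 8.61 at 1 week and 0 to 65.6 at 4 weeks in HZ, and its change there (2.75, adjusted p = 0.042) was lost in 7 of 10 fits (highest adjusted p = 0.152).

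The most negative differences came from genes that rose in PZ and not in HZ, or fell in HZ. Dmtn, an actin-binding protein of red cells and other types, had 642, 899.7, 1171, 829 and 1339 at 1 week and 205, 244, 569.7, 425 and 602 at 4 weeks in HZ (log2 fold change -1.33 ± 0.46, adjusted p = 0.048) and changed by 4.12, adjusted p = 8.9e-08 in PZ, and its call in HZ was lost in 7 of 10 fits (highest adjusted p = 0.137). Gucy2c, a guanylate cyclase receptor of gut, ranged from 25.6 to 97.3 at 1 week and 0 to 3.87 at 4 weeks in HZ (log2 fold change -4.35 ± 0.78, adjusted p = 0.00022). Tmprss3, a serine protease, and Ctse, a protease of red cells and stomach, overlapped between the ages in HZ and rose in PZ by 5.33 and 5.90 (adjusted p = 1.9e-05 and 1.2e-07). Olfm4, a secreted protein of neutrophils and gut, changed by -3.13, adjusted p = 0.023 in HZ and 2.68, adjusted p = 0.048 in PZ, with the HZ call lost in 3 of 10 fits (highest adjusted p = 0.0956). Of 18 erythroid markers 15 had a more negative change in HZ, and all 18 rose in PZ while 1 rose in HZ. A more negative change in HZ was also found in 4 of 14 neutrophil and 2 of 21 macrophage and antigen presentation markers, and in none of 16 B lymphocyte, 10 T cell and NK and 5 megakaryocyte markers. The erythroid markers thus moved with this direction of the zone difference, and their part in it was not tested.

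**Figure D5:**
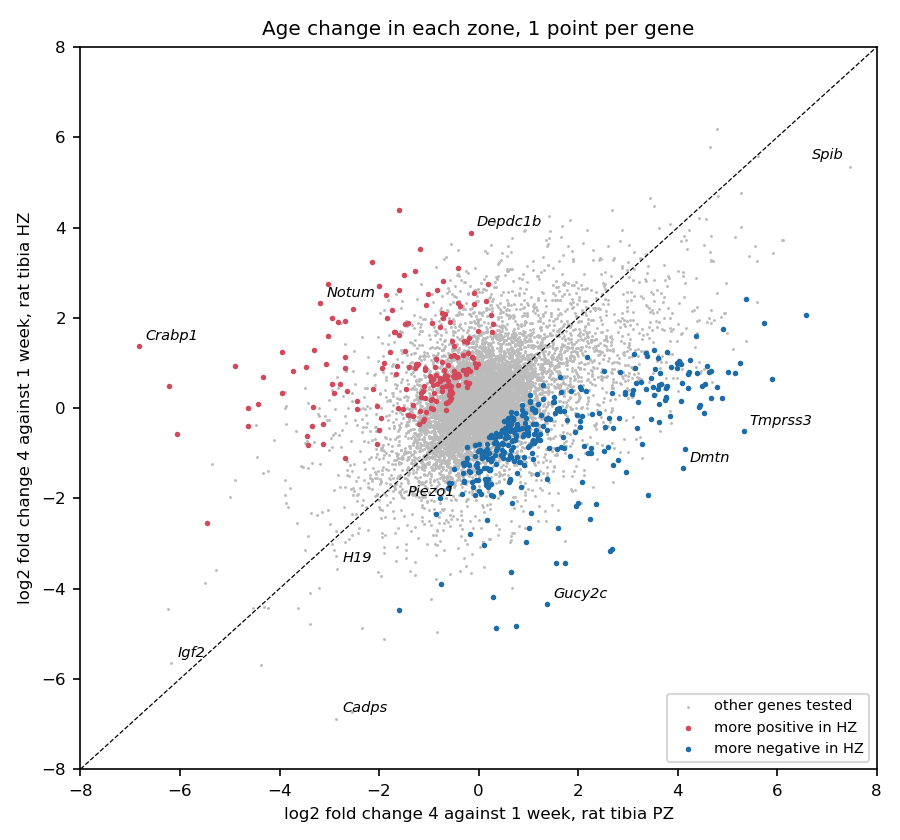
Log2 fold change from 1 to 4 weeks in rat tibia HZ (y axis) against PZ (x axis), 1 point per gene for 11779 genes, with genes whose change was more positive in HZ in red (180) and more negative in blue (332), and a dashed line of equal change. Igf2 and H19 lay where both zones fell, and 299 of the 332 genes in blue had an estimate above 0 in PZ.

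The mouse tibia HZ was measured at the same ages in a table that was normalized separately, so its own calls are set beside those of the rat with no test across the species. Of 10362 rat genes tested in both tables, 560 (5.40%) were higher and 301 (2.90%) were lower in the mouse. Of 357 genes called higher in rat HZ 64 were higher in mouse HZ (17.9% of the rat genes and 11.4% of the mouse genes), and of 360 called lower 60 were lower there (16.7% and 19.9%). In the opposite direction went 3 of the rat rises and 17 of the rat falls. Igf2 changed by -4.89, adjusted p = 2e-07, H19 by -3.84, adjusted p = 2.4e-05 and Gpc3 by -2.45, adjusted p = 0.00023 in the mouse. Npr2 (-1.25), Npr3 (-4.29), Mef2d (-1.30), Piezo1 (-1.46) and Slc4a3 (-2.08) fell in the mouse as well (adjusted p at most 7.4e-06 except for Npr3, at 3.6e-05). For Ihh and Bmp6 the mouse values were -0.36, adjusted p = 0.51 and -0.28, adjusted p = 0.74. The B lymphocyte genes Fcmr, Ikzf3 and Ms4a1 rose in the mouse too (5.67, 5.26 and 5.55), as did Cd79b, a chain of the B cell receptor (3.28 in the mouse and 4.77 in the rat), each with an adjusted p of at most 0.018. Fam184b, of unknown role, changed in the rat and the mouse by -3.0, adjusted p = 0.013 and -2.02, adjusted p = 0.022.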

How the data were processed

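RNA-Seq was performed on rat and mouse growth plate zones, and the rat tibia HZ was analysed here at 1 and 4 weeks (5 libraries each, 1 animal per library). Per the study's methods and processing notes, the authors aligned 50 bp paired-end reads with STAR 2.4.2 to rn6, used featureCounts 1.4.6 for counts per gene, and scaled these by the Relative Log Expression method of DESeq2. The annotation release and strand setting are not given in the sources used here, so overlapping genes may share reads. Each deposited value is a log2 that the authors took of 1 plus the normalized count. Linear counts had been planned for; fits used the deposited log2 values and levels the counts taken back from them. All values (100%) under 200 reads lay within 0.05 of whole reads, and the depth per library was recovered from them. Intervals and floors of 3 reads cover counting error only, since amplified reads without molecular identifiers are not independent molecules.

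The rat table held 15406 rows. Rows without a name (2) and second rows of a symbol (217, of 185 symbols) were left out and 27 names turned into dates were restored, leaving 15187 genes. The largest row was used for Igf2 (others had means of 27.9 and 14.5 at 1 week) and Nfasc. Testing was limited to the 11779 genes that reached a normalized count of 10 in 5 or more rat libraries. A model with the 6 rat groups as levels was fitted (limma 3.58.1, R 4.3.3, with the trend and robust options of its empirical Bayes step), with Benjamini-Hochberg adjustment over all genes tested. Calls of single genes needed more than a 2-fold change with an adjusted p under 0.05, the zone difference at an adjusted p under 0.05 and list members without a fold minimum. For named genes, passing the test and losing a call when a library was left out refer to the adjusted p alone. The mouse table (29 libraries) had its own fit. The fit was tested on simulated data.

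The comparison, the 50 gene lists and the naming rule were chosen with earlier results of these data known. Named genes were the 12 largest rises and 12 largest falls without overlap of the ages and with a mean of at least 50 in the higher age, up to 4 members of each list with the smallest adjusted p and expected zone markers, the 6 largest zone differences each way, and genes called in both species. Irs2, Jak2, Stc1, Pde5a, Sik3, Gli1, Peg3, Zim1, Fibin, Cdh5 and others outside the rule were named after their values were seen. Alternatives were other pseudocounts (0.5 and 4) and filters, other normalizations, array weights, voom on recovered reads, a replicate block, marker scores as covariates (those of bone and endothelium added after seeing the data) and leaving out each library. Rat sequences and coordinates were not analysed here, and some genes are not reported here. Replicates differed by more than sampling noise (chi-square per gene 20.8 to 571), so none was counted as a duplicate.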

Additional observations from a re-analysis of the deposited data

Results flagged for a closer look

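Of 294 groups of 5 libraries (the 147 named genes at each age), 17 held a library whose distance from its nearest neighbour, over the whole range on the log2 scale, exceeded Dixon's critical value of 0.71. Chance gives about 1 in 20. Replicate 3 at 4 weeks accounted for 5 of them: it was lowest in Mmp13 (23582), Cdh5 (830) and Igfbp7 (1055), and highest in Gdf10 (431) and Myh3 (10.6). Replicate 1 at 1 week was lowest in Ndufb11 (226) and highest in Cd72 (6.89) and Lrp3 (8.61). Replicate 1 at 4 weeks was highest in Bmpr1b (6.31), Itga8 (9.46) and Slc20a2 (353) and lowest in Foxa3 (22.1). At 1 week Fam184b (27.1) and Foxa3 (115) were lowest in replicate 4, Myh3 was highest in replicate 3 (384) and Shisa3 highest in replicate 5 (6.18), and at 4 weeks RGD1566401 was 0 in replicate 4. Of these, the flagged values of Bmpr1b, Cd72, Lrp3, Itga8, Shisa3 and RGD1566401 were normalized counts under 10.

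Among the 147 named genes, 35 had an age change that differed between HZ and PZ at an adjusted p under 0.05 (limma, difference of the log2 changes, HZ minus PZ). The change was more negative in HZ for Tmprss3 (-5.84), Olfm4 (-5.81), Gucy2c (-5.71), Dmtn (-5.45), Ctse (-5.26), Hba1 (-3.52), Igfbp5 (-3.38) and Erbb3 (-2.88). It was also more negative for Trim10 (-2.25), Bmp6 (-2.21), Bmp2 (-1.83), Ihh (-1.76), Slc4a3 (-1.70), Pth1r (-1.64), Mef2d (-1.60), Adamtsl4 (-1.57), Sulf2 (-1.50), Stk39 (-1.40), Piezo1 (-1.32), Scin (-1.0) and Lrrc8c (-0.97). The change was more positive in HZ for Crabp1 (8.20), Vsnl1 (6.71), Slit1 (5.83), Lrp3 (5.78), Notum (5.51) and Shisa3 (5.50), and for Stc1 (4.44), Depdc1b (4.05), Gli1 (2.83), Car9 (2.76), Gdf10 (2.72), Ucma (2.23), Smurf2 (1.02) and Loxl3 (1.00). Leaving out 1 HZ library at a time ended the call in 8 of 10 fits for Erbb3 (highest adjusted p = 0.088), 5 each for Gli1 (0.081) and Loxl3 (0.069), 4 for Stc1 (0.073), 3 each for Ucma (0.056), Hba1 (0.058) and Trim10 (0.058), 2 each for Scin (0.065) and Sulf2 (0.05), 1 for Lrrc8c (0.054), and in none for the other 25 genes.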

How the results depend on the processing

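The counts of 421 genes higher, 433 lower, 180 with a more positive and 332 with a more negative change in HZ than in PZ stayed within 1.5 times under the other pseudocounts, filters and normalizations and with a PZ score in the model; quantile normalization gave 358 higher and 545 lower. With only the libraries compared, 224 were higher. With voom on recovered reads, 247 were higher and 102 had a more positive change in HZ, and array weights gave 369 and 578 zone differences. Marrow scores left 9, 26, 19 and 72 genes, bone and endothelial scores (chosen after seeing the data) 172 higher genes, and no fold minimum 787 and 834. When 1 library was left out, the counts ranged from 287 (without replicate 3 at 1 week) to 601 (without replicate 4 at 1 week), 326 to 501, 115 to 226 and 248 to 364, and the 115 came without replicate 1 at 4 weeks.

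Of 129 named genes with an adjusted p under 0.05, 107 passed in all 10 fits that left out a library, 115 in voom (lost: Adipoq, Aurkb, Bglap, Bmp3, Chad, Gdf10, Lrp3, Myc, Pdpn, Phex, Plin1, Slc7a11, Stc1 and Trim10), 86 with bone and endothelial scores and 7 with marrow scores (H19, Igf2, Gpc3, Peg3, Pck2, Serpinh1 and Timp1). With only the 10 HZ libraries fitted, calls were lost for Acaca, Bmp3, Chad, Gdf10, Gli1, Igfbp7, Kif11, Lrp3, Mcm6, Myc, Olfm4 and Pde5a. Calls were also lost there for Pdpn, Phex, Prelp, Runx2, Scin, Sik3, Smad5, Smurf2, Stc1, Top2a and Trim10 (highest adjusted p = 0.191, for Pdpn). With marrow scores 123 of the 129 kept their sign. Hdac4 (0.28), Nfatc1 (0.038), Cd74 (-0.72), Trim10 (-0.71), RT1-Ba (-0.60) and Rag1 (-0.52) reversed. Of these, Cd74, Trim10, RT1-Ba and Rag1 are members of the scores. The model sets such genes partly against themselves, so their reversal cannot be read as a result. The cause of the other reversals was not tested, and the scores moved with age. Deviations of same-numbered HZ libraries at 1 and 4 weeks had correlations from -0.0446 to 0.197, and 2 of 5 libraries were closest to their own number. These libraries come from different animals, so this check cannot tell whether PZ and HZ libraries are paired. Whether PZ and HZ libraries with the same number share an animal is not given, and the zone difference treats them as independent. With only the libraries compared, a replicate block gave 447, 423, 227 and 460 genes, against 224, 394, 164 and 376 without the block. A floor of 3 reads equals a normalized count of 4.27 to 6.7 at 1 week and 1.89 to 2.64 at 4 weeks, so changes of genes below these levels were not detectable. The p-values compare 5 animals per age, with the spread estimated over all 30 rat libraries.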

Other observations

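Genes of serine, asparagine and one-carbon metabolism and of the response to amino acid shortage were noticed after their values were seen, and no list of them was tested. Psat1, an enzyme of serine synthesis, had normalized counts of 203, 159, 286, 444 and 111 at 1 week and 944, 564, 1211, 734 and 968 at 4 weeks in rat HZ (log2 fold change 1.99 ± 0.27, adjusted p = 4.8e-06). Its 4-week libraries all lay above its 1-week libraries, and in PZ it changed by 1.23, adjusted p = 0.0015. Phgdh, the first enzyme of that path, changed by 2.87, adjusted p = 0.01, or 2.03 with adjusted p = 0.056 without replicate 3 of the 1-week libraries. Asns, asparagine synthetase, changed by 1.54, adjusted p = 0.00033, Mthfd2 and Aldh1l2, mitochondrial enzymes of folate metabolism, by 0.98, adjusted p = 0.0013 and 1.61, adjusted p = 7.8e-07, and Pck2, mitochondrial phosphoenolpyruvate carboxykinase, by 1.16, adjusted p = 0.00051. The ages overlapped in Asns and Pck2 and not in the other genes named here. Chac1, which degrades glutathione, had 63.7, 111, 26.8, 72.6 and 100.4 at 1 week and 979.5, 284, 424, 496 and 1439 at 4 weeks (log2 fold change 3.16 ± 0.54, adjusted p = 0.00013), without overlap of the ages. Slc7a11, the cystine transporter, changed by 3.70, adjusted p = 0.019, or 3.50 with adjusted p = 0.054 without replicate 3 of the 1-week libraries, and missed the threshold in voom. Sesn2, a stress-induced regulator of growth, changed by 1.48, adjusted p = 0.0049.

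In the mouse tibia HZ, normalized separately, Asns changed by -2.24, adjusted p = 2e-05 and Chac1 by -2.46, adjusted p = 0.0026, and Sesn2 had a log2 fold change of -1.59, adjusted p = 0.052. The mouse values of Psat1, Mthfd2, Slc7a11 and Pck2 were -0.28, -0.74, -1.65 and -0.72 (adjusted p = 0.47, 0.16, 0.28 and 0.04996), and Pck2 changed less than 2-fold. No test across the species was run.

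The genomic span of the mouse gene of the same symbol (GRCm38) had a median of 20.3 kb for genes called higher (392 of 421 with a value), 35.7 kb for genes called lower (403 of 433) and 24.4 kb for the rest, a description without a test.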
